A study of Mus musculus with 11 samples.

Results

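The levels of 10 genes of cell adhesion and of the epithelial and mesenchymal states were measured by RNA sequencing in mouse embryonic stem cells (ESCs). They were selected by gene symbol among the 23284 genes listed for each library, and all 10 were found. They comprise 6 cadherins (Cdh1, Cdh2, Cdh3, Cdh4, Cdh5 and Cdh11), the adhesion molecule Epcam, the intermediate filament gene Vim, and the transcription factors Snai1 and Zeb1. The 11 libraries came from wild-type (WT) ESCs and from ESCs of a previously generated line labelled as a knockout of Tet1, Tet2 and Tet3 (triple knockout, TKO), all grown on gelatin in serum with leukaemia inhibitory factor. Cells of both genotypes were harvested without treatment (0 h) or following 4 h of exposure to α-amanitin at 10 µg/ml, which blocks RNA polymerase II, and total RNA was depleted of ribosomal RNA (2 libraries for each of the 4 groups). The fifth group held 3 libraries of polyadenylated (polyA) RNA from WT ESCs. The study calls the libraries of the α-amanitin experiment biological duplicates. The labels do not say whether the TKO line is 1 clone or whether the replicates were separate cultures, so a difference between WT and TKO is a difference between these cells, and p-values measure only the spread between these libraries. The study asked how Tet enzymes and the 5-hydroxymethylcytosine (5hmC) they place in RNA bear on transcript levels and stability, with Cdh4 as one of its example transcripts.

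Classical cadherins are transmembrane proteins that bind the same cadherin on a neighbouring cell and are tied to actin inside the cell by β-catenin and α-catenin. E-cadherin (Cdh1) is the main cadherin of epithelia and of mouse ESCs, whose compact colonies depend on it, whereas N-cadherin (Cdh2) is known from neural and mesenchymal cells. In an epithelial to mesenchymal transition, transcription factors such as Snai1 and Zeb1 repress Cdh1 by binding short DNA elements called E-boxes, and the intermediate filament protein vimentin (Vim) accumulates. The miR-200 family of microRNAs in turn represses Zeb1.

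The E-box that Snail and ZEB factors are known to bind reads CAGGTG, or CACCTG on the other strand. A RefSeq promoter window (GRCm38.p6) of the 250 bases before the start site was present for 3 of the genes: Vim, Snai1 and Epcam. Both strands were searched, and 17.2% of 32851 such windows held the E-box at least once. It occurred once in the window of Snai1 and at 2 positions in that of Epcam, and these letters were not found in that of Vim. The 30-base stretches around the matches are shown with the E-box in capitals, because they are where these letters lie in genes measured here. They come from the plus strand, at chr2:167538057-167538086 for Snai1, and at chr17:87635780-87635809 and chr17:87635948-87635977 for Epcam.
Snai1, E-box at -126 from the start site: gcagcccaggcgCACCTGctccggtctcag
Epcam, E-box at -187: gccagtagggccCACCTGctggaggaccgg
Epcam, E-box at -19: acccataaaaccCAGGTGtggaggagaagc
A match is a sequence feature only, and binding was not measured.

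The mature miR-200 microRNAs fall into 2 seed groups, shown from RefSeq because their hairpin genes are listed beside Zeb1 in these data. The seed (bases 2 to 8) is in capitals.
mmu-miR-141-3p: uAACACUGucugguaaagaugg
mmu-miR-200a-3p: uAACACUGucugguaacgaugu
mmu-miR-200b-3p: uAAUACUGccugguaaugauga
mmu-miR-200c-3p: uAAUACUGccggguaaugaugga
mmu-miR-429-3p: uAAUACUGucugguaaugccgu
The libraries were not made from small RNA, and the 5 hairpin genes received between 0 and 6 reads per library, so the level of these microRNAs was not measured here.

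The deposited values are in TPM, the share of each library's transcripts that a gene takes, corrected for gene length and scaled to the same total in every library. Whole reads recovered from the TPM steps summed to between 72639837 and 82129168 in the polyA libraries and between 25507874 and 29781366 in the ribodepleted ones. In bulk RNA, fewer cells of a type and less RNA per cell cannot be told apart. The pluripotency genes Pou5f1, Sox2, Nanog and Zfp42 together summed to between 1977 and 2006 TPM in WT and between 1393 and 1412 TPM in TKO at 0 h. The largest change was that of Zfp42, whose mean level fell from 489.7 to 115 scaled TPM. Pou5f1 and Sox2 were lower by less (log2 changes of -0.34 and -0.35, limma adjusted p of 0.00514 and 0.00489). Nanog went the other way without passing (0.16, adjusted p = 0.129). Of all genes tested, 28.3% were lower in TKO by adjusted p alone. Tet1 and Tet2 were lower in TKO at 0 h (log2 changes of -2.11 and -2.64 with adjusted p of 1.45e-06 and 3.24e-07), while Tet3 was 1.45 scaled TPM in both. The level of Tet3 thus did not bear out its part of the label, and values summed over a whole gene do not show which part of it is deleted.

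In untreated WT ESCs, Epcam and Cdh1 were the most abundant of the 10 transcripts. Epcam stood at 223.7 ± 0.0442 TPM and Cdh1 at 211.9 ± 8.04 TPM (SD, n = 2), followed by Vim at 113.6 ± 10.4 TPM and P-cadherin (Cdh3) at 20.6 ± 0.662 TPM. Cdh2 at 5.58 ± 0.217 TPM and Zeb1 at 4.43 ± 0.520 TPM were lower, and below them came R-cadherin (Cdh4, 1.42 ± 0.156 TPM), Snai1 (0.934 ± 0.209 TPM), Cdh11 (0.475 ± 0.0483 TPM) and VE-cadherin (Cdh5, 0.211 ± 0.0452 TPM). No neighbours in this order overlapped between their 2 libraries, although a ribodepleted library held as few as 12 reads for Snai1 and 6 for Cdh5. The same order held in WT cells after 4 h in α-amanitin. In both TKO groups and in the polyA libraries Cdh1 lay above Epcam. The polyA libraries also had Zeb1 above Cdh2, and there Cdh4 and Snai1 overlapped, as the only such pair in any group.

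**Figure D1:**
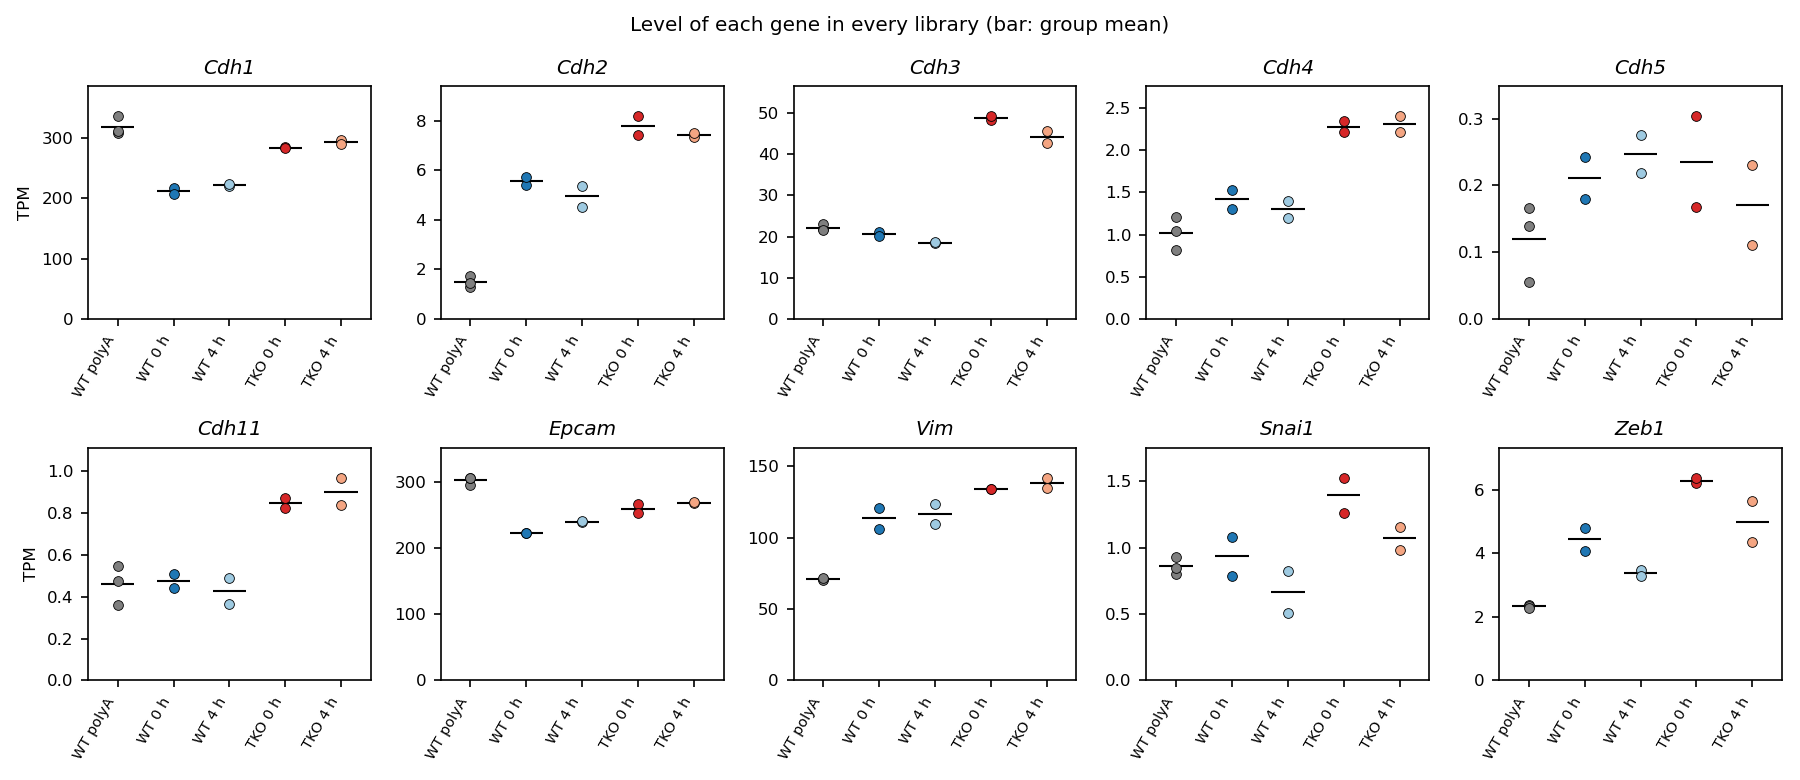
TPM of the 10 genes (1 panel each, axis from 0) in every library of the 5 groups, with points for libraries and a bar for the group mean (n = 3 for WT polyA and n = 2 for the others). The TKO points of Cdh3 lie between 42.8 and 49.2 TPM and all WT points between 18.4 and 23.1 TPM, while Cdh2, Vim and Zeb1 are lowest in the polyA libraries.

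Cdh1 made up most of the cadherin transcripts in every library. Of the summed TPM of the 6 cadherins, it took 88.5% and 88.0% in the WT libraries at 0 h and 82.8% and 82.3% in the TKO libraries. The share of Cdh3 was 8.55% and 8.57% in WT and 14.0% and 14.3% in TKO. After 4 h, Cdh1 took 89.9% and 89.5% in WT and 84.0% and 84.4% in TKO. The share of Cdh2 was 2.21% and 2.45% in WT at 0 h. The summed cadherin level was between 234.3 and 246 TPM in WT at 0 h and between 343.2 and 344.1 TPM in TKO.

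The first comparison asked which of the genes differed between TKO and WT ESCs at 0 h. Cdh3 rose 2.22-fold in TKO, and it was the 1 member called of the 7 that could be tested. Cdh1, Cdh2, Cdh4 and Zeb1 also passed the test on adjusted p, with higher levels in TKO by less than 1.5-fold on the fitted scale, whereas Epcam and Vim did not pass. Tests were run with limma on log2(scaled TPM + 1), where scaled TPM is TPM divided by a size factor for each library, and a gene was called at an adjusted p under 0.05 and a change over 1.5-fold. Of all 12467 genes tested, 10.4% were called higher in TKO, and 27.8% were higher by adjusted p alone. The TKO libraries lay above the WT libraries without overlap for 7 of these 7 genes and for 39.0% of all genes. The median log2 change of the 7 genes was 0.33, beside -0.02 for all genes. Cdh5, Cdh11 and Snai1 had mean scaled TPM values of 0.217, 0.655 and 0.999, under the minimum of 1, and were not tested.

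Cdh3 encodes P-cadherin, a classical cadherin of placenta and of basal layers of epithelia. Its scaled TPM was 20.4 and 20.3 in the WT libraries at 0 h and 44.8 and 45.3 in the TKO libraries. The lowest TKO library thus lay above the highest WT library by more than the level of either WT library. The log2 change was 1.11 (SE 0.0452, limma adjusted p = 5.70e-07), and it ranged from 0.98 to 1.21 over all alternative settings, each of which gave an adjusted p of 1.91e-05 or less.

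Cdh1 was at 211 and 207.9 scaled TPM in WT and at 264.7 and 260.2 in TKO at 0 h, without overlap. Its change was smaller than that of Cdh3, with a log2 value of 0.32 (SE 0.043, limma adjusted p = 0.000288), and it passed on adjusted p in all 17 settings. Cdh1 and Cdh3 lie on chromosome 8 in the same direction (plus strand, NCBIM37, the build called mm9), with Cdh3 at chr8:109034791-109080808 and Cdh1 at chr8:109127251-109194146, separated by 46442 bases. Neither gene overlaps another annotated gene. Of the genes around them, chosen after the values were seen, Prmt7, Zfp90, Tmco7 and Has3 had log2 changes of -0.07, -0.08, 0.03 and 0.10 at 0 h, with adjusted p from 0.362 to 0.721. At 4 h Prmt7 was lower in TKO (-0.18, limma adjusted p = 0.0268), and the adjusted p of the other 3 lay between 0.38 and 0.579.

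The log2 ratio of Cdh3 to Cdh1 within a library depends on no scaling between libraries. This ratio was picked after the values were seen and is given without a test. It was -3.37 and -3.36 in the WT libraries at 0 h, and -2.56 and -2.52 in the TKO libraries. After 4 h it was -3.59 and -3.58 in WT and -2.70 and -2.76 in TKO, so all TKO libraries lay above all WT libraries.

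N-cadherin (Cdh2) was lower than Cdh1 by more than an order of magnitude, with 5.27 and 5.79 scaled TPM in WT and 6.90 and 7.53 in TKO at 0 h. Both TKO libraries exceeded both WT libraries, and the log2 change was 0.33 (limma adjusted p = 0.0127, SE 0.0904). The adjusted p passed its limit in 14 of 17 settings. It was 0.0585 with quantile normalisation, 0.084 without WT 0 h replicate 1 and 0.0935 without TKO 0 h replicate 2.

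R-cadherin (Cdh4), known from the developing retina and brain, was near the lower limit of the test. It had 1.27 and 1.54 scaled TPM in WT and 2.18 and 2.04 in TKO at 0 h, from between 114 and 223 reads over the 8 ribodepleted libraries. The TKO libraries lay above the WT libraries, and the ratio of their means was 1.5. Because 1 TPM was added before the log, the fitted log2 change was 0.37 (SE 0.103, limma adjusted p = 0.0135), and Cdh4 was not called. In a fit of the recovered reads with limma voom, chosen after the data were seen, the log2 change was 0.59 (adjusted p = 0.000713) and Cdh4 was called. The adjusted p was 0.0906 with quantile normalisation, 0.0913 without WT 0 h replicate 1 and 0.0813 without TKO 0 h replicate 1.

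Zeb1, a repressor of Cdh1, was measured together with high Cdh1 in all libraries. Its scaled TPM was 4.66 and 4.10 in WT and 5.75 and 5.86 in TKO at 0 h. The log2 change was 0.34 (SE 0.102, limma adjusted p = 0.0195), in the same direction as that of Cdh1. It passed on adjusted p in 11 of 16 settings, with 0.082 under quantile normalisation, 0.0614 without a minimum level, 0.121 without WT 0 h replicate 2, and 0.0691 and 0.0858 without TKO 0 h replicates 1 and 2.

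Epcam, a homophilic adhesion molecule of epithelia and pluripotent cells, was at 216.9 and 225.5 scaled TPM in WT and at 247.5 and 232.8 in TKO at 0 h. The log2 difference was 0.12 with a 95% interval from -0.0038 to 0.24 (limma adjusted p = 0.0908). The groups did not overlap, and the difference passed with deposited TPM (0.21, adjusted p = 0.00168) and with quantile normalisation (0.24, adjusted p = 0.000599). It also passed with a minimum of 5 TPM (0.14, adjusted p = 0.042), and without TKO 4 h replicate 1 (adjusted p = 0.0451) or replicate 2 (adjusted p = 0.0395). Deposited TPM moved the median of all genes from -0.02 to 0.07, and relative to that median Epcam stood at 0.14.

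Vim was at 103 and 121.9 scaled TPM in WT and at 124.6 and 123.6 in TKO at 0 h. The WT libraries were spread more widely than the TKO libraries, and the log2 difference was 0.15, with a 95% interval from -0.05 to 0.34 (limma adjusted p = 0.179). It passed with deposited TPM (0.24, adjusted p = 0.0213, or 0.17 relative to the median of all genes), with quantile normalisation (0.22, adjusted p = 0.0462) and without WT 0 h replicate 2 (0.26, adjusted p = 0.0355).

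The 3 genes under the minimum were examined in a fit without it. Cdh11, a cadherin of mesenchyme and bone, had 0.428 and 0.513 scaled TPM in WT and 0.808 and 0.759 in TKO at 0 h, with a log2 change of 0.27 (limma adjusted p = 0.029) from between 23 and 55 reads over the ribodepleted libraries. Snai1 had 1.05 and 0.792 scaled TPM in WT and 1.17 and 1.40 in TKO, and the difference of 0.24 did not pass (limma adjusted p = 0.167). Cdh5, the cadherin of endothelial cells, had 0.174 and 0.245 scaled TPM in WT and 0.155 and 0.279 in TKO, at no more than 16 reads per library, and any difference was not detectable at this depth.

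The same comparison after 4 h in α-amanitin gave values close to those at 0 h. Cdh3 was at 20.7 and 20.2 scaled TPM in WT and at 43.9 and 43.6 in TKO (log2 change 1.06, SE 0.0452, limma adjusted p = 6.70e-07), and it was again the 1 member called, where 11% of all genes tested were called higher. By adjusted p alone, 5 of the 7 tested members were higher, beside 29.0% of all genes. The other 4 were Cdh1 (log2 change 0.24, adjusted p = 0.00133), Cdh2 (0.37, adjusted p = 0.00675), Cdh4 (0.43, adjusted p = 0.00606) and Zeb1 (0.32, adjusted p = 0.0245). Epcam differed by 0.01 with a 95% interval from -0.12 to 0.13, and Vim by 0.09 with an interval from -0.10 to 0.29. Cdh4 was called with a pseudocount of 0.1 TPM (0.64, adjusted p = 0.00835) and with limma voom (0.67, adjusted p = 0.000254).

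Of the 3 genes under the minimum, Cdh11 was at 0.41 and 0.532 scaled TPM in WT and at 0.802 and 0.986 in TKO at 4 h (log2 change 0.35 in the fit without a minimum, limma adjusted p = 0.00966). Snai1 was at 0.568 and 0.896 scaled TPM in WT and at 1.11 and 1.00 in TKO (0.24, adjusted p = 0.163), and Cdh5 was at 0.245 and 0.30 in WT and at 0.221 and 0.114 in TKO (-0.13, adjusted p = 0.181).

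At 4 h too, some of these differences depended on the scaling or on 1 library. With quantile normalisation the adjusted p was 0.0623 for Cdh2, 0.0791 for Cdh4 and 0.176 for Zeb1. Without WT 4 h replicate 1 it was 0.0602 for Cdh2 and 0.051 for Zeb1. For Zeb1 it was 0.0775 without a minimum level, 0.132 without WT 4 h replicate 2 and 0.138 without TKO 4 h replicate 1. Epcam and Vim passed with deposited TPM (adjusted p of 0.00628 and 0.017) and with quantile normalisation (0.00125 and 0.0437). Deposited TPM moved the median of all genes from -0.01 to 0.14 in this comparison, and relative to that median Epcam stood at 0.03 and Vim at 0.11. The 2 comparisons of TKO with WT share no library but were fitted with 1 common estimate of the spread.

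**Figure D2:**
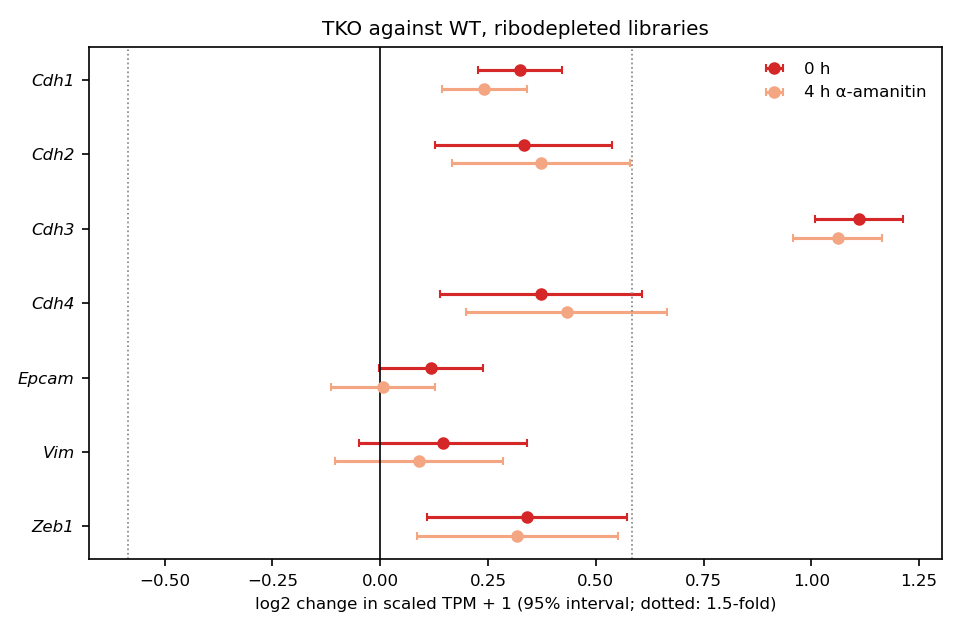
Log2 change of the 7 tested genes in TKO against WT at 0 h (red) and after 4 h in α-amanitin (light red) on the log2(scaled TPM + 1) scale, with 95% intervals from limma (2 libraries per group) and dotted lines at 1.5-fold. Cdh3 lies beyond the 1.5-fold line at both times, with intervals from 1.01 to 1.21 and from 0.96 to 1.16, and the intervals of Epcam and Vim include 0.

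The balance between epithelial and mesenchymal transcripts was examined by 3 ratios taken within each library. The log2 ratio of Cdh1 to Cdh2 was 5.32 and 5.17 in WT and 5.26 and 5.11 in TKO at 0 h. At 4 h it was 5.608 and 5.373 in WT and 5.335 and 5.267 in TKO. Over both times the TKO value was lower by a mean of 0.13 (TKO minus WT -0.13, exact permutation p = 0.167, two-sided). The ratio of Cdh1 to Vim was 1.03 and 0.77 in WT and 1.09 and 1.07 in TKO at 0 h. At 4 h it was 1.017 and 0.849 in WT and 1.137 and 1.031 in TKO. Its mean difference over both times was 0.16 (exact permutation p = 0.0556, the smallest that 36 arrangements within times allow). The ratio of Epcam to Vim differed by -0.06 (exact permutation p = 0.389). Adjusted over the 3 ratios, p was 0.251, 0.167 and 0.389, so none passed, and this design could not reach 0.05 for any.

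Genes whose profile over the 8 ribodepleted libraries lay closest to that of Cdh1 were found by the root mean square distance of mean-centred log2 values. They were Fanci (distance 0.0193) and Ubb (0.0263), with log2 changes of 0.33 and 0.31 in TKO at 0 h beside 0.32 for Cdh1. Both were picked by their values in these same libraries, so changes close to that of Cdh1 follow from the selection.

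Other junction genes in the same comparison were described by lists, with the median change of each list beside the -0.02 of all genes. Of the list of adherens junction partners, none of 10 tested was called at 0 h, and the median was 0.09. By adjusted p alone 4 were higher and 2 lower, beside 27.8% and 28.3% of all genes. The catenin transcripts Ctnnb1, Ctnna1 and Ctnnd1 differed by 0.01, 0.01 and 0.02 (limma adjusted p of 0.915, 0.93 and 0.677), with all 3 intervals between -0.11 and 0.12. Vinculin (Vcl) was higher by 0.46, Pvrl2 by 0.44 and cortactin (Cttn) by 0.42, and Pvrl3 was lower at -0.26, all 4 passing on adjusted p but not on the fold threshold.

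Tight junctions seal the space between epithelial cells. Of 11 tested genes of this list, 6 were called higher and none lower at 0 h, beside 10.4% and 5.45% of all genes, and the median was 0.67. Among them were the claudins Cldn7 (1.16, limma adjusted p = 7.58e-07) and Cldn4 (0.80, adjusted p = 2.67e-06), tricellulin (Marveld2, 0.90, adjusted p = 2.31e-05) and occludin (Ocln, 0.89, adjusted p = 5.36e-05). At 4 h, 7 were called higher, beside 11% of all genes. By adjusted p alone, 9 of the 11 were higher and 1 lower at 0 h, beside 27.8% and 28.3% of all genes. The lower gene was Tjp3, named after its values were seen (-0.34, adjusted p = 0.00434). Tjp3 was also lower at 4 h (-0.34, adjusted p = 0.00437).

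Of 7 tested desmosome genes, 4 were called higher at 0 h (10.4% of all genes) and at 4 h (11% of all genes), none was called lower, and the median at 0 h was 0.82. Desmosomes join neighbouring cells through desmosomal cadherins linked to keratin filaments. Desmoplakin (Dsp), the link to keratins, was at 9.81 and 10.8 scaled TPM in WT and at 42.1 and 43.9 in TKO at 0 h (log2 change 1.96, limma adjusted p = 1.70e-07). The desmosomal cadherins desmocollin 2 (Dsc2, 1.48, adjusted p = 3.00e-06) and desmoglein 2 (Dsg2, 0.82, adjusted p = 1.59e-05) and the desmosome protein Perp (0.88, adjusted p = 4.58e-05) rose as well. Pkp4, named after its values were seen, was lower by adjusted p at 0 h (-0.27, adjusted p = 0.00105) and at 4 h (-0.33, adjusted p = 0.000297).

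In the list of epithelial identity genes, 3 of 11 tested were called higher at both times, beside 10.4% of all genes at 0 h and 11% at 4 h. The median at 0 h was 0.01. The 3 called genes were the simple epithelial keratins Krt18 (2.69, limma adjusted p = 9.31e-07), Krt8 (2.55, adjusted p = 8.66e-07) and Krt19 (2.05, adjusted p = 1.17e-05). Krt8 was at 71.6 and 92.7 scaled TPM in WT and at 479.4 and 486.4 in TKO at 0 h. The other 8 were not called. By adjusted p alone, 5 of the 11 were higher and 3 lower at 0 h, beside 27.8% and 28.3% of all genes. The largest change among the 8 was that of Ovol1 (-0.50, adjusted p = 0.0156), whose mean scaled TPM was 1.63 in WT cells and 0.863 in TKO cells.

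Mesenchymal genes other than the members moved in both directions. Of 9 tested, 3 were called higher (Tagln 1.20, Snai3 0.88, Mmp2 0.88) and 1 lower (Acta2 -1.01) at 0 h. Of all genes, 10.4% were called higher and 5.45% lower. Of 17 other cadherins, 3 were tested and none was called, although Cdh13 (0.51, limma adjusted p = 0.00327) and Cdh10 (0.44, adjusted p = 0.00942) were higher by adjusted p, and Cdh24 differed by 0.06 (adjusted p = 0.492). By adjusted p alone 27.8% of all genes were higher. Mean scaled TPM in WT was 0.896 for Cdh13 and 0.991 for Cdh10, and the ratios of means were 1.9 and 1.72. The 1 TPM added before the log lowered the fitted changes of these 2 genes. Of 6 genes that regulate or shed cadherins, Adam10, a protease that cleaves E-cadherin, rose by 0.99 (adjusted p = 8.99e-06). It was the only called gene of the 6, a count near the 10.4% of all genes called higher. Sp1 and Klf8 were lower by adjusted p at -0.34 and -0.30, without being called.

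**Figure D3:**
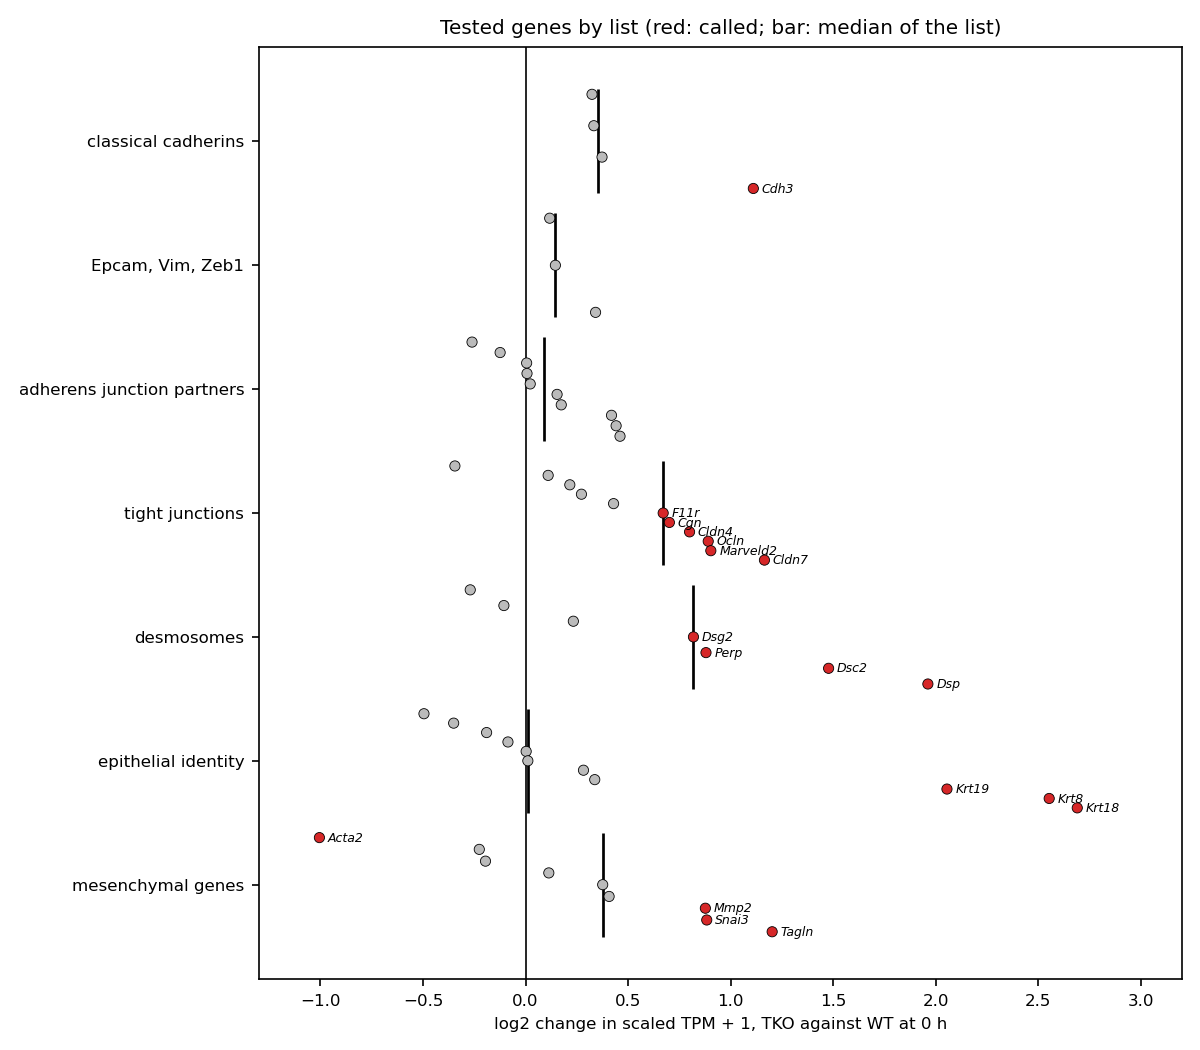
Log2 change in TKO against WT at 0 h for each tested gene (points) of the cadherins, Epcam, Vim and Zeb1, and 5 lists, with called genes in red and named, and a bar at each list's median. The medians of the tight junction and desmosome lists are 0.67 and 0.82, that of the adherens junction partners is 0.09, and the keratins lie farthest to the right.

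Markers of other cell types also differed between WT and TKO libraries. At 0 h the 4 trophectoderm markers summed to at most 3.35 TPM in WT and at least 7.12 TPM in TKO. None was at 0 in both libraries of a group. Of 2 tested, Hand1 was called higher (1.63, limma adjusted p = 7.87e-06) and Eomes did not pass (0.20, adjusted p = 0.158). In the WT polyA libraries, prepared by a different protocol, the same 4 summed to between 7.68 and 7.92 TPM. Of all genes tested, 10.4% were called higher and 5.45% lower in TKO at 0 h. The 7 fibroblast markers summed to at most 8.76 TPM in WT and at least 12.8 TPM in TKO. Of 4 tested, Col1a2 was called higher (1.18, limma adjusted p = 3.09e-05), while Col1a1, Col3a1 and Thy1 (0.25, 0.00 and -0.05) did not pass. Among those under the minimum, Postn was lower in TKO, with means of 1.01 TPM in WT and 0.292 TPM in TKO. Dcn (0.0338 and 0.305 TPM) and Lum (listed at 0 in WT, 0.155 TPM in TKO) were higher. The 6 endothelial markers summed to at most 13.1 TPM in WT and at least 14.6 TPM in TKO, with Tek and Flt1 called higher, Esam called lower and Emcn listed at 0 in both. The 6 primitive endoderm markers summed to between 5.01 and 5.16 TPM in WT and between 4.04 and 4.82 TPM in TKO. Of 2 tested, Gata4 was called lower (-0.61, limma adjusted p = 0.00112) and Dab2 was higher by adjusted p alone (0.47, adjusted p = 0.00706). The 4 neural markers measured summed to between 200.8 and 204.2 TPM in WT and between 177.8 and 181.5 TPM in TKO. Nes was called higher (0.77, limma adjusted p = 1.09e-05), and Tubb3 was lower by adjusted p alone (-0.43, adjusted p = 0.000256). Sox1 and Pax6 did not pass (adjusted p of 0.0817 and 0.973). The part of other cell types in the changes above was not tested.

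The next comparison asked how these transcripts fared after 4 h of exposure to α-amanitin. How far transcription was blocked in these cells was not measured here. TPM are shares, so a loss common to all transcripts does not show in them, and values are relative to the rest of the transcriptome. In WT cells no member was called, where 0.0882% of all genes were called higher and 2.01% lower. Cdh1 and Epcam were relatively higher at 4 h by adjusted p alone, as were 21.9% of all genes. Cdh1 was at 211 and 207.9 scaled TPM at 0 h and at 248.2 and 242.2 at 4 h (log2 change 0.23, SE 0.043, limma adjusted p = 0.00774). Epcam was at 216.9 and 225.5 scaled TPM at 0 h and at 268.8 and 261.5 at 4 h (0.26, SE 0.0533, adjusted p = 0.00931).

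Both differences were lost under other scalings. With deposited TPM, Cdh1 changed by 0.07 (adjusted p = 0.242) and Epcam by 0.10 (adjusted p = 0.0853), where the median of all genes moved from 0.03 to -0.11, and relative to that median they stood at 0.18 and 0.21. With quantile normalisation the adjusted p was 0.249 for Cdh1 and 0.0654 for Epcam. Without WT 4 h replicate 1 it was 0.0575 for Cdh1 and 0.0621 for Epcam, and without WT 0 h replicate 1 it was 0.0602 for Epcam.

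The other 5 tested members did not pass in WT. Cdh2, Cdh3 and Cdh4 had log2 differences of -0.01, 0.01 and 0.02, with intervals that lay between -0.22 and 0.25. Zeb1 was at 4.66 and 4.10 scaled TPM at 0 h and at 3.90 and 3.56 at 4 h (-0.18, limma adjusted p = 0.182). Vim differed by 0.19 (adjusted p = 0.103), and passed with limma voom (adjusted p = 0.0359), with the replicate number as a block (adjusted p = 0.0396) and without WT 0 h replicate 2 (0.31, adjusted p = 0.037).

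In TKO cells no member passed on adjusted p, as was the case for all but 0.265% of the genes tested, and 0.16% were called. Cdh1 was at 264.7 and 260.2 scaled TPM at 0 h and at 284.6 and 295.7 at 4 h (log2 difference 0.14, limma adjusted p = 0.129). Epcam differed by 0.15 (adjusted p = 0.151) and Zeb1 by -0.21 (adjusted p = 0.236). Without TKO 4 h replicate 1, Cdh1 (0.17, adjusted p = 0.0268) and Epcam (0.20, adjusted p = 0.0337) passed. Cdh3 was at 44.8 and 45.3 scaled TPM at 0 h and at 43.9 and 43.6 at 4 h, with a log2 difference of -0.04 and an interval from -0.14 to 0.06.

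Whether the 4 h difference itself depended on the genotype was tested by the interaction term. It passed for 0 of 12467 genes by limma adjusted p, and 7.54% had an unadjusted p under 0.05. For the 7 members the interaction ranged from -0.11 for Epcam to 0.06 for Cdh4, with adjusted p from 0.697 to 0.969. The interval for Cdh3 ran from -0.20 to 0.10 and that for Cdh4 from -0.27 to 0.39.

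**Figure D4:**
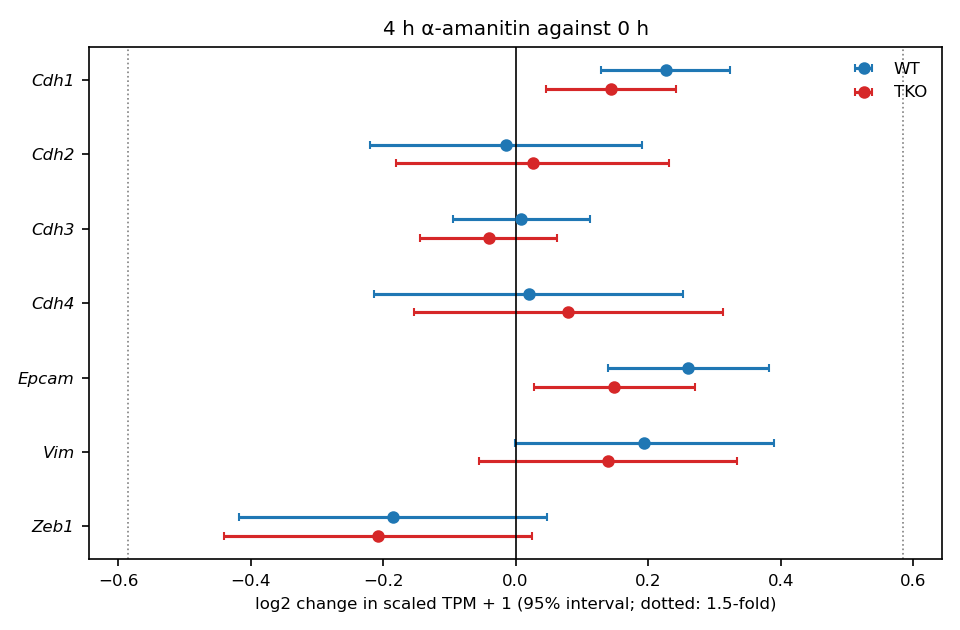
Log2 difference of the 7 tested genes between 4 h in α-amanitin and 0 h in WT (blue) and TKO (red) cells on the log2(scaled TPM + 1) scale, with 95% intervals from limma (2 libraries per group) and dotted lines at 1.5-fold. All points lie within the 1.5-fold lines, and Cdh1 and Epcam in WT, at 0.23 and 0.26, are the only ones that passed on adjusted p.

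PolyA RNA of WT cells was set beside untreated ribodepleted WT RNA in a fit of these 5 libraries alone. These libraries were prepared by different protocols, and RNA selection cannot be told apart from other differences between the preparations. Cdh2, Zeb1 and Vim were called lower in the polyA libraries, where 16.4% of 12481 genes tested were called lower and 18.7% higher. Cdh2 was at 1.26, 1.66 and 1.41 scaled TPM in polyA RNA and at 5.56 and 6.11 in ribodepleted RNA (log2 difference -1.49, SE 0.0905, limma adjusted p = 9.01e-07). Zeb1 was at 2.32, 2.25 and 2.24 scaled TPM in polyA RNA and at 4.92 and 4.33 in ribodepleted RNA (-0.78, SE 0.0747, adjusted p = 1.48e-05). Vim was at 69.1, 67.4 and 70.6 scaled TPM in polyA RNA and at 108.8 and 128.8 in ribodepleted RNA (-0.77, SE 0.0654, adjusted p = 6.94e-06).

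Cdh1 and Epcam were higher in the polyA libraries by less than 1.5-fold. Cdh1 was at 299.7, 321.8 and 307 scaled TPM in polyA RNA and at 222.8 and 219.6 in ribodepleted RNA (0.48, SE 0.0409, limma adjusted p = 6.95e-06). Epcam was at 287.4, 293.9 and 300.6 scaled TPM in polyA RNA and at 229.1 and 238.2 in ribodepleted RNA (0.33, adjusted p = 5.22e-05). By adjusted p alone 40.1% of all genes were higher and 40.9% lower, so passing on adjusted p was common in this comparison.

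Cdh3 was the tested member with the smallest difference. It was at 21.2, 22.1 and 21.2 scaled TPM in polyA RNA and at 21.5 and 21.4 in ribodepleted RNA (0.00, 95% interval from -0.10 to 0.10). Cdh4 was lower at -0.32 (limma adjusted p = 0.0214). The adjusted p was 0.103 without WT 0 h replicate 2 and 0.0747 without polyA replicate 3, and with limma voom Cdh4 was called (-0.60, adjusted p = 0.00247). The log2 ratio of Cdh1 to Cdh2 within a library was 7.90, 7.60 and 7.76 in the polyA libraries and 5.32 and 5.17 in the ribodepleted WT libraries at 0 h.

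**Figure D5:**
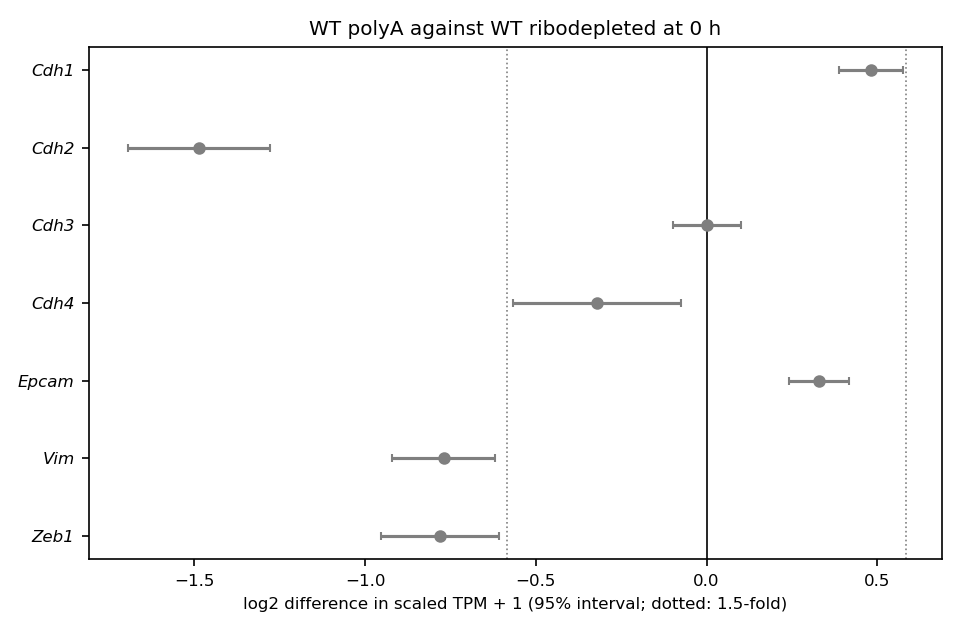
Log2 difference of the 7 tested genes between WT polyA (n = 3) and WT ribodepleted libraries at 0 h (n = 2) on the log2(scaled TPM + 1) scale, with 95% intervals from limma and dotted lines at 1.5-fold. Cdh2, Vim and Zeb1 lie below the lower 1.5-fold line, Cdh3 lies at 0.00, and Cdh1 and Epcam lie above 0 at 0.48 and 0.33.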

How the data were processed

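Groups and replicate numbers came from the sample titles. The authors' deposited TPM were made, according to their methods, by checking reads (FastQC), removing those of low complexity (AfterQC) or from ribosomal and transfer RNA (Bowtie2), trimming (Trimmomatic), aligning with STAR to mm9 with RefSeq genes, and counting with HTSeq. Tool versions and the strand setting used in counting are not given in the sources used here. Of the members, only Zeb1 overlapped another annotated gene listed in the files (Gm10125, at most 0.152 TPM).

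For the 8 ribodepleted libraries, TPM were scaled by size factors (median of ratios). A limma model (version 3.58.1, R 4.3.3) with 1 mean per group and a trended eBayes was then applied to log2(scaled TPM + 1). The deposited values are TPM, so the count model of the study was not used for the main tests. Testing was limited to genes whose scaled TPM averaged over 1, and p-values were adjusted by Benjamini and Hochberg over all tested genes. The polyA libraries were fitted separately with WT at 0 h. A gene was called at an adjusted p under 0.05 and a change over 1.5-fold. Fold changes on this scale understate those of low genes. All p-values are two-sided. Code for the fits was tested on simulated data.

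Whole reads were recovered from the TPM steps for 100% of 19869 genes above 0, up to a divisor shared by all libraries of a gene. They were used for depth and for limma voom, an alternative added once the data had been seen. Replicates of each group differed by more than sampling noise (chi-square per degree of freedom of at least 1.53). Deviations of same-numbered libraries correlated at between -0.044 and 0.12, so the numbers were not taken to pair them.

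The members and gene lists were chosen with earlier results of these data known. Named genes were all members, Tet1, Tet2 and Tet3, the 3 catenins, up to 4 genes of each list with the largest change in TKO at 0 h, and the 2 genes nearest in profile to Cdh1 and to each called member. Some genes that this rule or the lists hold are not reported here, and list counts leave them out. Alternatives were deposited TPM, quantile normalisation, pseudocounts of 0.1 and 5 TPM, no minimum or a minimum of 5 TPM, no trend, no fold threshold, a replicate block, and leaving out each library.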

Additional observations from a re-analysis of the deposited data

How the results depend on the processing

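The number of members called changed by more than 1.5 times under few settings. Without the fold threshold it was 5 in TKO against WT at 0 h and at 4 h, 2 at 4 h against 0 h in WT, and 6 in polyA against ribodepleted libraries. With limma voom it was 2 for TKO against WT at both times, and with a pseudocount of 0.1 TPM it was 2 at 4 h. With a minimum of 5 TPM it was 1 in the polyA comparison, because fewer members were tested. The call of Cdh3 in TKO at both times was kept in all settings run. With the replicate number as a block, 1 member was called in TKO against WT at each time and 3 in the polyA comparison, as without it. The block moved Vim at 4 h against 0 h in WT to an adjusted p of 0.0396 and Cdh4 in the polyA comparison to 0.0798. Same-numbered libraries correlated at 0.12 at most, so they may share only a number.

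Differences near 0 changed sign without passing. With deposited TPM these were, at 4 h against 0 h, Cdh3 (-0.1436) and Cdh4 (-0.0717) in WT and Cdh2 (-0.0611) in TKO, and the interactions of Cdh3 (0.0069), Vim (0.0071) and Zeb1 (0.0194). Deposited TPM also moved the median of all genes, to -0.11 in WT, -0.07 in TKO and 0.04 for the interaction. Relative to that median Cdh4 in WT (0.04), Cdh2 in TKO (0.01) and the 3 interactions (-0.03 for Cdh3, -0.03 for Vim and -0.02 for Zeb1) kept their direction, and Cdh3 in WT stood at -0.03. The cause of the other changes of sign was not tested. With quantile normalisation they were Cdh2 in WT (0.0768) and the interactions of Cdh1 (0.0204), Cdh2 (-0.0042) and Vim (0.0037). Without a minimum Epcam in TKO against WT at 4 h was -0.0331, and with a minimum of 5 TPM Cdh3 in WT was -0.0136. With 1 library left out at a time, the lone library of a group was assumed to vary like the other groups. The range included 0 for Epcam in TKO against WT at 4 h (-0.0403 to 0.0613), for Cdh2 (-0.0931 to 0.0771) and Cdh4 (-0.063 to 0.1012) at 4 h in WT, for Cdh2 at 4 h in TKO (-0.0284 to 0.0816), for Cdh3 in the polyA comparison (-0.0126 to 0.0198), and for the interactions of Cdh2 (-0.0554 to 0.1154), Cdh4 (-0.0224 to 0.1428), Vim (-0.1746 to 0.0677) and Zeb1 (-0.1378 to 0.0974).

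With 2 libraries per group, the differences of Cdh2, Cdh4 and Zeb1 lay near the limit of the test. Cdh5, Cdh11 and Snai1 had at most 55 reads in any ribodepleted library.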
